A study of Arabidopsis thaliana with 8 samples.

Results

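The Arabidopsis genome holds a large family of cysteine-rich receptor-like kinases (CRKs), and 41 of its genes, chosen by locus identifier from the 33602 rows of the count table, are described here. They fall into the tandem cluster CRK5 to CRK24 (20 genes, AT4G23130 to AT4G23320), the cluster CRK30 to CRK34 (5 genes), the cluster CRK36 to CRK40 (5 genes), the adjacent pair CRK28 and CRK29, and 9 genes elsewhere. RNA was sequenced from roots of Col-0, the common wild-type accession. In the MBZ group, 14-day-old seedlings spent 4 h on medium with mebendazole at 10 µM, a benzimidazole drug known as a tubulin ligand of parasitic worms. In the DMSO group, seedlings of the same age spent 4 h on medium with the solvent dimethyl sulfoxide alone, and both groups had grown on DMSO medium before. Each group had 4 libraries, and the total count was between 39807931 and 54818801 reads in MBZ libraries and between 38042437 and 53588168 in DMSO libraries.

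CRKs sit in the plasma membrane. Each typical member has an extracellular region with a pair of cysteine-rich DUF26 domains, a single membrane span and a cytoplasmic serine/threonine kinase domain. The family is known from work in Arabidopsis for responses to pathogens, reactive oxygen species, salicylic acid and abscisic acid, and many of its members arose by tandem duplication. CRK28 has been linked to immune receptor complexes at the cell surface, and CRK2 to the control of the NADPH oxidase RBOHD.

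Mebendazole roots and solvent roots differed most, among the tested members of the family, at CRK28 (AT4G21400) and CRK29 (AT4G21410), which rose 7.38-fold and 6.36-fold. CRK11 (AT4G23190), in the largest cluster, fell 2.60-fold, and CRK3 (AT1G70530), CRK25 (AT4G05200) and CRK2 (AT1G70520), outside the clusters, fell 1.93-fold, 1.49-fold and 1.36-fold. Of the 41 genes, 20 had enough reads to pass the count filter and be tested. Of these, 14 passed an adjusted p of 0.05 (edgeR's quasi-likelihood test, Benjamini-Hochberg adjustment, 20867 genes tested), 4 of them higher in MBZ and 10 lower. That share of the tested CRKs, 70%, stood against 66.5% of all tested genes, of which 32.9% were higher and 33.6% lower in MBZ, so a call at this threshold was about as frequent among CRKs as in the whole table. A change of at least 2-fold was called for 3 of the 20 CRKs (15.0%, 2 higher and 1 lower), against 7.79% of all tested genes (3.89% higher and 3.90% lower). With DESeq2 or with no filter on low counts this count was 9, 2 higher and 7 lower. Both fits held 39 CRKs, but DESeq2 gave an adjusted p to only 11 of the 21 CRKs below the filter. The added calls came through 6 genes with few reads. In these fits 1884 (DESeq2) and 2075 (no filter) of 25990 genes were called at least 2-fold changed, and DESeq2 left part of the 25990 without an adjusted p. Without any one of the MBZ replicates 1, 2, 3 and 4, the count was 5 of 22 CRKs, with CRK4 and CRK9 added. CRK4 had 1 to 5 counts in MBZ and 10 to 21 in DMSO libraries, and CRK9 had 1 to 3 and 9 to 22. Both thus passed the filter through DMSO libraries alone, so their direction was fixed in advance and adds no support. The 5 were 2 higher and 3 lower. Between 1685 and 1720 of all genes were then called, of 20956 to 21067 tested. The 2 groups of 4 libraries did not overlap for 11 of the 20 CRKs (55%, 4 with MBZ above and 7 with MBZ below), against 59.0% of all tested genes (29.4% above and 29.5% below). The median log2 fold change of the tested CRKs was -0.33, and -0.37 without CRK28 and CRK29, against 0.00 for all tested genes. These medians differed between fits. They were -0.60 and -0.63 with DESeq2 and -0.60 and -0.67 with no filter, fits that held 39 CRKs. With limma, which held 12 CRKs, they were -0.14 and -0.20 on log2(RPKM + 1) and -0.20 and -0.33 on log2(RPKM + 0.1).

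**Figure D1:**
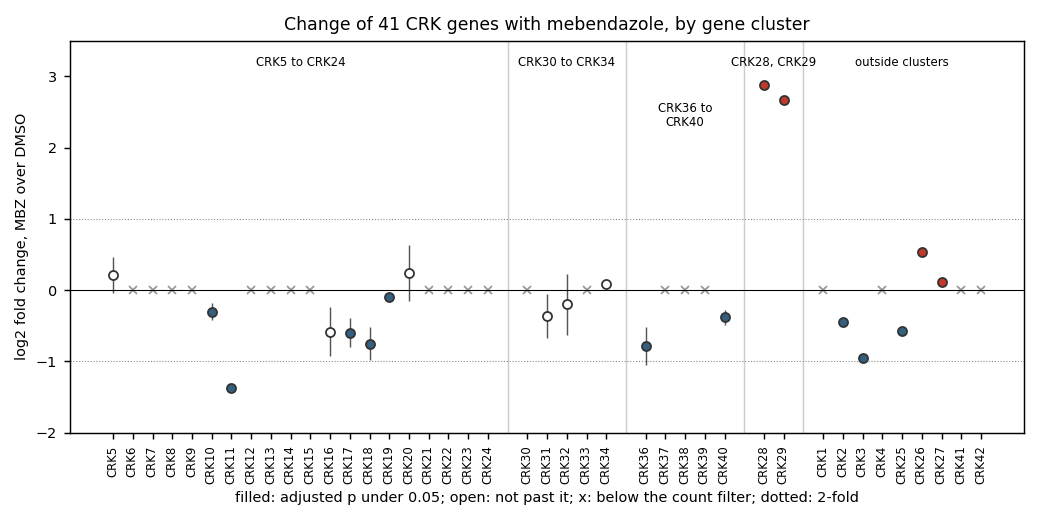
The log2 fold change (MBZ over DMSO, vertical axis) of the 41 CRK genes is drawn in gene order by cluster, with bars for ± 1 SE from edgeR. CRK28 and CRK29 stand at 2.88 and 2.67, CRK11 at -1.38, and the 21 genes below the count filter are marked with a cross at 0 and have no value.

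CRK28 and CRK29 lie head to tail on the minus strand of chromosome 4, at chr4:11398857-11402180 and chr4:11401711-11405235 in the TAIR10.1 gene models of RefSeq. Their coding sequences, of 2052 and 2040 bases, were identical at 1758 of 2024 aligned bases (86.9%). A stretch of both is shown to make visible how far apart the copies are for a sequencing read. It is the first 120 bases of their longest ungapped aligned block, read 5′ to 3′ from coding base 1031 of CRK28 and coding base 1019 of CRK29, with the 18 bases that differ in capitals.
CRK28: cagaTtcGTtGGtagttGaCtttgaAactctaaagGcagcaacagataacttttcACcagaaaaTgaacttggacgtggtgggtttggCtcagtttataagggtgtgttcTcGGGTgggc
CRK29: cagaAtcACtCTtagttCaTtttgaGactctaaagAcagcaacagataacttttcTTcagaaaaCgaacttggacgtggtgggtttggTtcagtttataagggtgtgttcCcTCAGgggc
Only 30 of the 2003 50-base words in the CRK28 coding sequence also occurred in that of CRK29, and the longest identical run was 79 bases. The annotated transcripts also overlap by 470 exonic bases on the same strand, none of them coding, where reads cannot be assigned by sequence. Over whole transcripts, 451 50-base words were shared, which was 13.7% of those of CRK28 and 14.7% of those of CRK29. The gene lengths implied by the deposited RPKM and counts were 2210 bases for CRK28 and 2207 for CRK29, shorter than the exonic length of the TAIR10.1 models, which is 3049 bases for CRK28.

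CRK28, whose levels are given as CPM, read counts scaled by TMM-adjusted library size, had 138, 141, 139.9 and 134 CPM in MBZ libraries, against 18.6, 18.6, 19.2 and 18.6 CPM in DMSO libraries. All MBZ libraries stood far above all DMSO libraries, with no overlap. The mean was 138 ± 3.20 CPM in MBZ and 18.7 ± 0.301 CPM in DMSO (SD, n = 4 each), a log2 fold change (MBZ over DMSO, the log2 difference) of 2.88 ± 0.03 (SE), with edgeR adjusted p = 1.94e-89. CRK29 had 296, 292, 295 and 286 CPM in MBZ libraries, against 46.7, 45.0, 46.1 and 45.9 CPM in DMSO libraries. Again every MBZ library was above every DMSO library, and the spread within each group was small beside the gap. The mean was 292 ± 4.36 CPM in MBZ and 45.9 ± 0.723 CPM in DMSO (SD, n = 4 each), a log2 difference of 2.67 ± 0.02 SE (edgeR adjusted p = 9.39e-97). By log2 fold change the pair ranked 103 and 124 from the top of the 20867 tested genes. With the counts of both genes summed to a single feature, the log2 fold change was 2.73, or 6.66-fold. That sum does not depend on how shared reads were divided, provided that each was counted once.

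Per gene length, CRK29 was the more abundant of the pair in each library. The ratio of CRK29 to CRK28 in the deposited RPKM was 2.15, 2.06, 2.11 and 2.14 in MBZ libraries, against 2.52, 2.42, 2.40 and 2.47 in DMSO libraries. All 4 MBZ ratios were below all 4 DMSO ratios, and the mean was 2.12 ± 0.038 in MBZ and 2.46 ± 0.053 in DMSO (SD, n = 4 each). The difference in log2 ratio was -0.22. This ratio was chosen after its values had been seen, so it is given as a description with no test.

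The genes next to the pair did not share one direction. B120 (AT4G21390), a lectin-type receptor kinase gene downstream of CRK28, averaged 26.0 ± 0.552 CPM in MBZ and 15.9 ± 0.750 CPM in DMSO, a log2 fold change of 0.71 (edgeR adjusted p = 3.96e-28). B160 (AT4G21430), upstream of CRK29, averaged 18.7 ± 0.431 CPM in MBZ and 18.7 ± 0.739 CPM in DMSO, a log2 fold change of 0.00 (edgeR adjusted p = 0.956). Other neighbours with low counts fell: RK3 had a log2 fold change of -1.74 (edgeR adjusted p = 6.85e-06), and MYB102, a transcription factor gene, one of -2.69 (edgeR adjusted p = 1.28e-11). B120 was thus the only tested neighbour that rose, and it changed less than the pair.

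**Figure D2:**
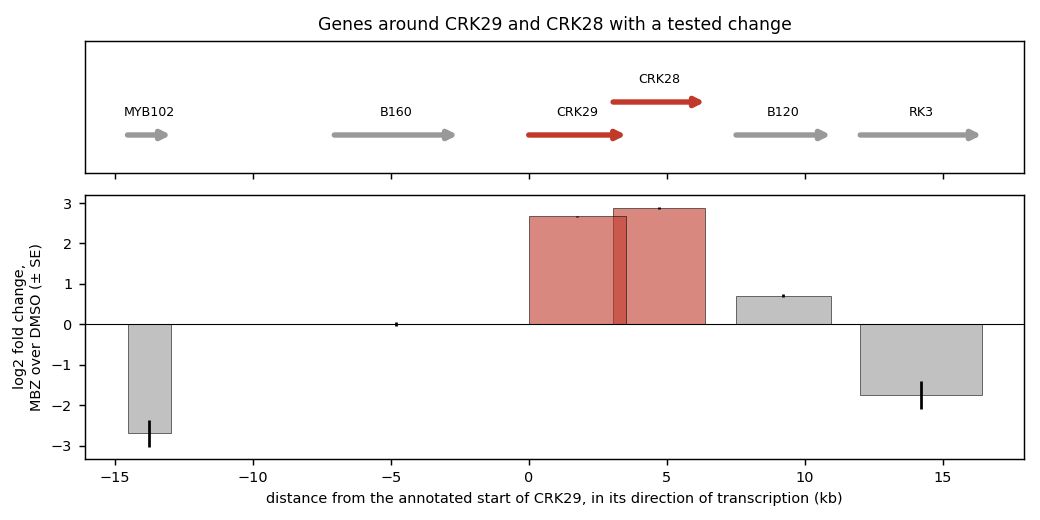
Tested genes around the pair are drawn by distance from the annotated start of CRK29 in its direction of transcription (kb), as arrows above and as log2 fold changes (MBZ over DMSO, bars for ± 1 SE) below. CRK29 and CRK28, in red, overlap and reach 2.67 and 2.88, next to 0.71 for B120 and 0.00 for B160.

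The pair made up more of the RNA of the 41 CRK genes in MBZ roots. Summed over the 41 genes, the level was 747 ± 8.57 CPM in MBZ and 478 ± 2.32 CPM in DMSO (SD, n = 4 each). Further CRKs, CRK43 to CRK46, are not in this sum. CRK28 and CRK29 held 57.6% ± 0.296 of the reads of the 41 genes in MBZ libraries and 13.5% ± 0.171 in DMSO libraries. Without the pair, the sum was lower with the drug, at 316 ± 2.23 CPM in MBZ and 413 ± 2.32 CPM in DMSO. The cluster CRK5 to CRK24 held 15.6% ± 0.286 of the reads of the 41 genes in MBZ and 29.5% ± 0.572 in DMSO. The 9 genes outside clusters held 23.2% ± 0.392 in MBZ and 51.4% ± 0.493 in DMSO. The 5 shares of a library add to a whole, so a rise in one share lowers the others.

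**Figure D3:**
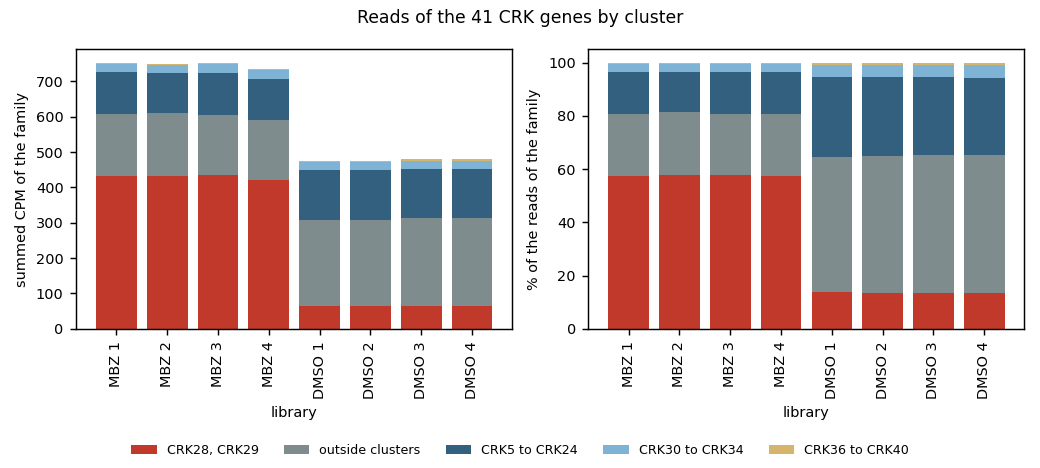
Bars show, for each library, the summed CPM of the 41 CRK genes by cluster (left) and as a percentage of their reads (right). The 4 MBZ libraries stand left of the 4 DMSO libraries. The red part, CRK28 and CRK29, is 57.6% of the reads of the 41 genes on average in MBZ and 13.5% in DMSO.

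Levels per gene length, in the deposited RPKM, were given for 12 of the 41 genes. In MBZ roots the order was CRK29 (132 ± 2.01 RPKM), CRK28 (62.2 ± 1.47), CRK19 (48.9 ± 0.947), CRK25 (28.6 ± 0.580) and CRK3 (21.1 ± 0.263). In DMSO roots it was CRK19 (53.0 ± 1.45 RPKM), CRK25 (43.1 ± 0.144), CRK3 (41.1 ± 1.06), CRK29 (20.9 ± 0.330) and CRK2 (19.1 ± 0.434), with SD over 4 libraries throughout. CRK29 was thus the first in MBZ and the fourth in DMSO, and CRK28 was the second in MBZ and the ninth in DMSO. The other 7 genes in MBZ lay between 1.03 RPKM (CRK10) and 13.8 RPKM (CRK2 and CRK27). Neighbours whose libraries overlapped, so that their order is not resolved, were CRK2 and CRK27 in MBZ, CRK11 and CRK34 in DMSO, and CRK40 and CRK10 in both groups.

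**Figure D4:**
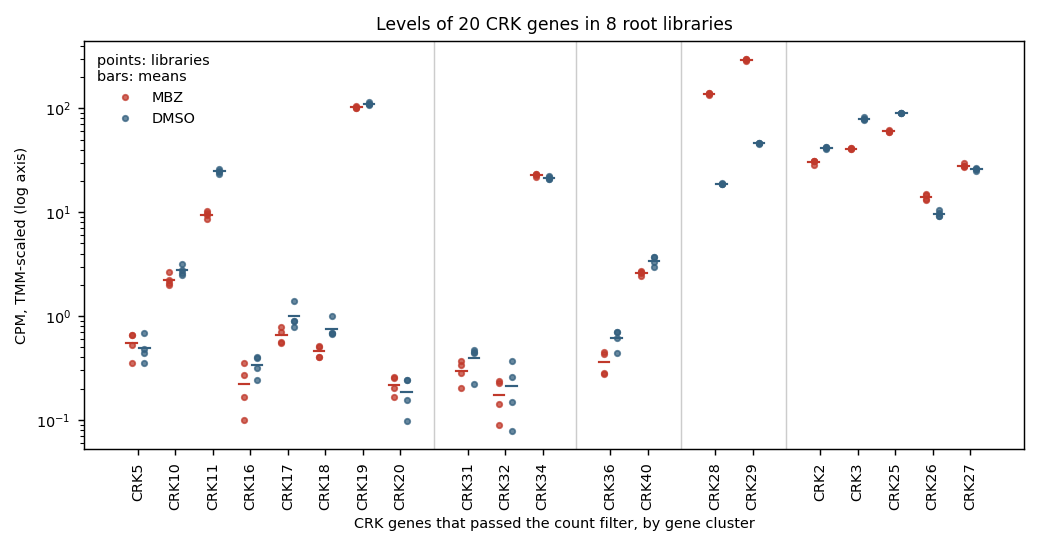
CPM after TMM scaling (log axis) is shown for the 20 CRK genes that passed the count filter, one point per library, with MBZ in red left of DMSO in blue and a bar at each mean. CRK28 and CRK29 show the widest gap with MBZ above, CRK11 with MBZ below, while genes under 1 CPM spread widely and mostly overlap.

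In the cluster CRK5 to CRK24, 8 of 20 genes were tested. Of these, 5 fell, none rose and 3 did not pass the threshold, where 32.9% of all tested genes were higher and 33.6% lower. The 8 log2 fold changes lay between -1.38 and 0.24, with a median of -0.44. That median was -0.69 without MBZ replicate 3, -0.69 with DESeq2, -1.55 with no filter, where it includes fitted values of genes with 0 counts in MBZ, and -0.17 with limma on log2(RPKM + 1). At an unadjusted p under 0.05 in edgeR, and by DESeq2, 0 genes of the cluster were higher. CRK11, also called RLK3 and known as a gene induced by pathogens and oxidative stress, had 9.42, 8.56, 10.2 and 9.81 CPM in MBZ libraries, against 24.6, 25.1, 23.4 and 25.8 CPM in DMSO libraries. Every MBZ library was below every DMSO library. The mean was 9.49 ± 0.699 CPM in MBZ and 24.7 ± 0.997 CPM in DMSO (SD, n = 4 each), a log2 difference of -1.38 ± 0.05 SE (edgeR adjusted p = 9.56e-44). The abundant member of the cluster, CRK19 (AT4G23270), whose overexpression in Arabidopsis is known to trigger cell death, had 105, 101, 104 and 101 CPM in MBZ libraries, against 114, 109.8, 109.8 and 106 CPM in DMSO libraries. The groups did not overlap, but the gap was narrow, with a log2 difference of -0.10 ± 0.02 SE (edgeR adjusted p = 3.03e-05). CRK18, CRK17 and CRK10 fell by 0.75, 0.60 and 0.30 on the log2 scale, with edgeR adjusted p of 0.00328, 0.00755 and 0.0174, and the groups overlapped for CRK17 and CRK10.

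CRK5, CRK16 and CRK20 did not pass, with log2 fold changes of 0.22 ± 0.25, -0.58 ± 0.35 and 0.24 ± 0.39 (SE) and edgeR adjusted p of 0.459, 0.133 and 0.605. CRK16 and CRK17 share 776 exonic bases on the same strand in the TAIR10.1 models. Their counts thus depend on how the authors divided shared reads and are uncertain. CRK20 had between 5 and 14 counts a library. Its coding sequence is 90.2% identical, over aligned bases, to that of CRK19, which had between 3990 and 5934 counts a library. Whether reads of CRK19 entered the CRK20 count was not tested. The call for CRK10 was lost without DMSO replicate 3 (adjusted p = 0.110), MBZ replicate 2 (0.0523) or MBZ replicate 3 (0.0677), and that for CRK17 without DMSO replicate 2 (0.121), in the same edgeR test.

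The 12 untested genes of this cluster had few reads, and none of the 21 untested CRKs averaged more than 9.63 counts a library. CRK7 had 0 counts in all MBZ libraries together and 17 in all DMSO libraries together. With the MBZ sum set at a floor of 3 counts over the group, CRK7 was 5.32-fold lower in MBZ. That value leaves out the counting error of the DMSO sum, so it is not a strict bound. CRK13, whose overexpression in Arabidopsis is known to raise salicylic acid, had 0 counts in MBZ and 12 in DMSO, 3.75-fold lower by the same floor. CRK9 had 8 counts in MBZ and 56 in DMSO, CRK14 had 3 in MBZ and 24 in DMSO, and CRK15 had 3 in MBZ and 18 in DMSO. Together with CRK4, outside the clusters, with 14 counts in MBZ and 63 in DMSO, these were the 6 untested CRKs called when the filter was dropped, all lower in MBZ, with edgeR adjusted p between 2.28e-06 and 0.0156. Of the 5123 genes in the whole table that had a count but did not pass the filter, 455 were called in that fit. The other 7 untested genes of the cluster had at most 15 counts over the DMSO libraries and were not called.

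Of the 5 genes of the cluster CRK30 to CRK34, 3 were tested and none passed in edgeR, where 66.5% of all tested genes passed. In edgeR 1 of them (CRK34) had an unadjusted p under 0.05, and DESeq2 called 0. CRK34 had a log2 difference of 0.08 ± 0.04 SE (edgeR adjusted p = 0.0656), which passed without DMSO replicate 4 (adjusted p = 0.0394) or MBZ replicate 2 (0.0320). CRK31 and CRK32 had log2 fold changes of -0.36 ± 0.31 and -0.20 ± 0.42 (SE), with edgeR adjusted p of 0.301 and 0.695. CRK33 had no count in any library, and CRK30 had 10 counts in MBZ and 3 in DMSO.

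In the cluster CRK36 to CRK40, both tested genes fell, where 33.6% of all tested genes were lower in MBZ. CRK40 (AT4G04570) had 2.74, 2.46, 2.59 and 2.68 CPM in MBZ libraries, against 2.95, 3.35, 3.68 and 3.72 CPM in DMSO libraries. The groups did not overlap, although the highest MBZ library came close to the lowest DMSO library. The mean was 2.61 ± 0.121 CPM in MBZ and 3.43 ± 0.357 CPM in DMSO (SD, n = 4 each), a log2 difference of -0.38 ± 0.10 SE (edgeR adjusted p = 8.69e-04). CRK36, linked to abscisic acid responses, had a log2 difference of -0.79 ± 0.26 SE (edgeR adjusted p = 0.00637) at 0.360 CPM in MBZ and 0.618 CPM in DMSO, with overlapping groups. CRK37, CRK38 and CRK39 had at most 4 counts in either group.

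Of the 9 genes outside the clusters, 5 were tested and all passed, 2 higher and 3 lower in MBZ, and for each the groups did not overlap. Of all tested genes, 66.5% passed, and the groups did not overlap for 59.0%. CRK3 had 41.5, 40.9, 40.2 and 41.1 CPM in MBZ libraries, against 76.7, 78.2, 79.1 and 81.6 CPM in DMSO libraries, a log2 difference of -0.95 ± 0.03 SE (edgeR adjusted p = 1.01e-51). MBZ libraries were close to each other and all far below DMSO. CRK25 had 59.3, 61.2, 58.7 and 60.9 CPM in MBZ libraries, against 89.2, 89.4, 89.3 and 90.0 CPM in DMSO libraries, a log2 difference of -0.58 ± 0.02 SE (edgeR adjusted p = 4.13e-39). CRK25 shares 391 exonic bases with AT4G05190 on the opposite strand, and without a stated strand setting the reads of that stretch cannot be told apart.

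CRK26 (AT4G38830) had 14.6, 15.1, 13.2 and 13.3 CPM in MBZ libraries, against 9.78, 9.26, 10.4 and 9.22 CPM in DMSO libraries. All MBZ libraries were higher, with a log2 difference of 0.54 ± 0.06 SE (edgeR adjusted p = 1.45e-14). CRK2, at 30.3 ± 1.21 CPM in MBZ and 41.4 ± 0.891 CPM in DMSO (SD, n = 4 each), fell by 0.45 on the log2 scale (edgeR adjusted p = 1.75e-22). CRK27, at 28.1 ± 1.0 CPM in MBZ and 25.8 ± 0.619 CPM in DMSO (SD, n = 4 each), rose by 0.12 on the log2 scale (edgeR adjusted p = 0.00323). CRK2, CRK3, CRK26 and CRK27 shared no 50-base word with another transcript. CRK1 had no count in any library, and CRK41 and CRK42 had 9 and 1 counts in MBZ and 12 and 6 counts in DMSO.

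The stretch before the annotated start is shown for CRK29 and CRK11, since CRK29 rose and CRK11 fell in the same roots. W boxes (TTGACC or TTGACT on either strand), the letters that WRKY transcription factors are known to bind, are in capitals. Both sequences are the 250 bases before the start, read 5′ to 3′ on the minus strand in TAIR10.1, chr4:11405236-11405485 for CRK29 and chr4:12143859-12144108 for CRK11.
CRK29: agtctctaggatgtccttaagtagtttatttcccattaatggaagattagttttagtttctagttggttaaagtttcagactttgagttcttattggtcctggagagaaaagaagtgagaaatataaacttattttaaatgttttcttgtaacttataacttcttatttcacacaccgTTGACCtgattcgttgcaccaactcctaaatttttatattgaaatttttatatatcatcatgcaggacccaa
CRK11: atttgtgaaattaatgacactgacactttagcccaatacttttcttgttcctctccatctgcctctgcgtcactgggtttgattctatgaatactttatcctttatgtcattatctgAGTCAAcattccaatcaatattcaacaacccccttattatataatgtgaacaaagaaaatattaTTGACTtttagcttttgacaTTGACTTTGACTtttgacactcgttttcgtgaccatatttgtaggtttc
CRK11 had 4 W boxes, starting 133, 69, 49 and 43 bases before the start, and CRK29 had 1, at 72 bases. The 250 bases before the CRK28 start lie wholly within exons of CRK29 and held none. From 250 bases before to 50 after the CRK29 start, 193 bases lie in exons of AT4G03065. That gene, annotated as misc_RNA on the same strand, is not in the count table. In windows of 300 bases, 250 before to 50 after the start, a W box occurred in 26 of the 41 CRKs (63.4%), against 32.4% of 26706 gene starts. By cluster these were 13 of 20 for CRK5 to CRK24, 3 of 5 for CRK30 to CRK34, 4 of 5 for CRK36 to CRK40, 1 of 2 for the pair and 5 of 9 elsewhere. TGACG, which TGA factors are known to bind and which shares the letters TGAC with the W box, occurred in 15 of 41 (36.6%), against 23.1% of gene starts. GCCGCC, the letters bound by ethylene response factors, occurred in 0 of 41, against 2.55% of gene starts. These matches are a description of letters only.

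Genes related to the CRKs, or placed in the same pathways, were called in both directions, as in the whole table, where 66.5% of tested genes were called, 32.9% higher and 33.6% lower in MBZ. Of 12 DUF26 relatives, 10 were tested, 4 higher, 5 lower and 1 not past, none of them 2-fold. Among them PDLP8 rose by 0.76 and PDLP6 fell by 0.33 on the log2 scale, with edgeR adjusted p of 1.22e-18 and 8.03e-13. CRK44 (AT4G00960), a gene next to CRK41, rose by 0.79 (edgeR adjusted p = 3.28e-08), and CRK43 (AT1G70740) fell by 0.12 (0.00905). CRK45 and CRK46 had at most 7 and 2 counts in a library and were not tested. Of 21 surface immune receptor and signalling genes, all tested, 9 rose, 8 fell and 4 did not pass. FLS2, the flagellin receptor, averaged 6.27 ± 0.119 CPM in MBZ and 0.840 ± 0.149 CPM in DMSO (SD, n = 4 each), a log2 difference of 2.89 (edgeR adjusted p = 5.44e-40). The kinase CPK5 and the NADPH oxidase RBOHD rose by 0.38 and 0.36 on the log2 scale (edgeR adjusted p = 1.95e-33 and 1.15e-26). FRK1, a marker of early pattern-triggered responses, fell by 1.05 on the log2 scale (edgeR adjusted p = 4.70e-07).

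Of 14 salicylic acid pathway genes, 12 were tested, 5 higher, 5 lower and 2 not past. Among all tested genes, 32.9% were higher and 33.6% lower. PAD4, a partner of EDS1 in basal immunity, averaged 49.9 ± 1.27 CPM in MBZ and 19.5 ± 0.579 CPM in DMSO (SD, n = 4 each), a log2 difference of 1.36 (edgeR adjusted p = 1.45e-55). EDS1 and SAG101 rose by 0.46 and 0.48 on the log2 scale (edgeR adjusted p = 6.24e-27 and 1.47e-16), SARD1, a regulator of salicylic acid synthesis, rose by 1.01 (1.43e-05), and PBS3, a synthesis enzyme, fell by 1.45 (1.02e-13). Of 11 stress WRKY factors, 4 rose, 4 fell and 3 did not pass: WRKY18 rose by 1.04, while WRKY70 and WRKY33 fell by 1.37 and 0.52 on the log2 scale (edgeR adjusted p = 7.01e-28, 1.23e-40 and 3.27e-36). The medians of these lists lay between -0.15 and 0.05 on the log2 scale, against 0.00 for all tested genes.

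**Figure D5:**
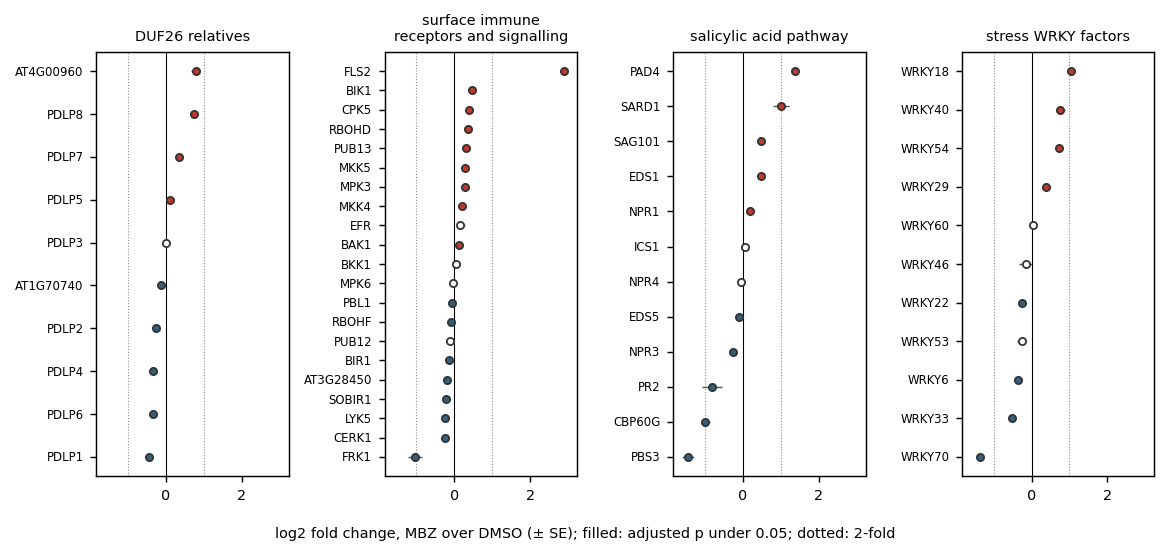
Log2 fold changes (MBZ over DMSO, horizontal axis, bars for ± 1 SE) are shown for the tested genes of 4 lists, with filled points past an adjusted p of 0.05. Each list has points on both sides of 0, and FLS2 (2.89) lies farthest out.

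Root markers were present in all libraries, and 1 of them, PYK10, decided their sum. The 9 root markers summed to between 8837 and 8860 CPM in MBZ libraries and between 14147 and 14380 CPM in DMSO libraries. Of the 9, 2 were higher, 6 lower and 1 not past, where 32.9% of all tested genes were higher and 33.6% lower. PYK10 held at least 96.76% of the summed CPM in each MBZ library and at least 97.93% in each DMSO library. The other 8 summed to between 277 and 286 CPM in MBZ libraries and between 291 and 298 CPM in DMSO libraries. PYK10, an abundant root beta-glucosidase, GL2 and WER, regulators of the root epidermis, fell by 0.71, 0.70 and 0.53 on the log2 scale (edgeR adjusted p = 1.34e-77, 2.51e-21 and 4.94e-13). The 10 leaf markers summed to between 142 and 146 CPM in MBZ libraries and between 225 and 236 CPM in DMSO libraries, with all 9 tested ones lower, 3 of them at least 2-fold, and RBCS1B without a count in MBZ libraries. CAB1, PSBO1 and LHCA1, of the photosynthetic apparatus, fell by 1.64, 0.67 and 0.88 on the log2 scale (edgeR adjusted p = 8.24e-45, 3.07e-42 and 8.86e-31). RBCS2B and RBCS3B, near-identical Rubisco genes whose counts are uncertain, averaged 0.00562 and 0.0919 CPM in MBZ and 0.697 and 1.22 CPM in DMSO. In bulk roots, fewer cells of a type and less RNA per cell cannot be told apart, and the part of these shifts in the CRK results was not tested. The labels do not say that the libraries came from separate plates of plants, so each p measures only the spread between these libraries.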

How the data were processed

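Root RNA from 8 libraries (4 MBZ, 4 DMSO) was analysed. The authors deposited raw read counts for 33602 genes, and RPKM (reads per kilobase of gene, scaled to library size) for 17872 of them, 12 of them CRKs. Per the submitters' processing notes, STAR 2.7.0a and edgeR 3.36.0 were used with the build TAIR10. The counting program, gene annotation and strand setting are not given in the sources used here; counting that divides shared reads or ignores strand would affect overlapping and near-identical CRKs. Samples were grouped by title and treatment label. The column names of the MBZ libraries read DMSO, 4h and SM, without the drug's name. The labels and file headers state no batch.

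Counts were fitted in R 4.3.3 with edgeR 4.0.16: filterByExpr, TMM scaling, the quasi-likelihood test of MBZ over DMSO on all 8 libraries, and Benjamini-Hochberg adjustment over 20867 genes, with calls at 0.05. CPM used TMM-scaled library sizes. The common biological coefficient of variation was 1.91%. A floor of 3 counts was between 0.055 and 0.079 CPM in a library, which covers counting error only. DESeq2 1.42.0, limma 3.58.1 on log2(RPKM + 1) and log2(RPKM + 0.1), other scalings and filters, a replicate block and leaving out each library were alternatives. A test against a 1.5-fold change, the summed pair, the ratio of CRK29 to CRK28, the root marker sum without PYK10 and the directions of the 2-fold counts under each alternative were added after seeing the data. Replicates of a group differed beyond counting noise. Equal replicate numbers did not deviate together, so the libraries were not treated as paired.

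Gene models and sequences came from RefSeq TAIR10.1 (Biopython 1.88 for alignments); the files hold no coordinates. Symbols came from RefSeq, which matched 32835 identifiers. All 41 CRKs are accounted for, and values per library are given for those at least 2-fold changed, the smallest p in each direction in each cluster among those past the threshold, and the 3 highest mean RPKM. From each other list, genes were named for the 3 smallest p or a change of at least 2-fold. The CRKs of the list of DUF26 relatives were named as well. The CRK genes, the other gene lists and the tests were chosen with earlier results of these data known. Protein sequences were not used here.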

Additional observations from a re-analysis of the deposited data

Results flagged for a closer look

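For 5 of 40 groups of 4 libraries (12.5%), the library at one end stood apart from the other 3 by a Dixon ratio (its gap to the nearest library over the whole range of the group) above Dixon's critical value for 4 samples. Chance gives about 5% of groups. CRK28 in DMSO replicate 3 was high (19.2 CPM, ratio 0.931284), beside 18.6 CPM in each of the other DMSO libraries. CRK18 in the same library was high (0.999 CPM, ratio 0.931468), beside 0.666 to 0.689 CPM, and CRK31 there was low (0.222 CPM, ratio 0.889457), beside 0.444 to 0.472 CPM. CRK34 in MBZ replicate 2 was low (21.8 CPM, ratio 0.872858), beside 23.0 to 23.2 CPM. CRK2 in MBZ replicate 4 was low (28.5 CPM, ratio 0.883448), beside 30.8 to 31.1 CPM. The calls for CRK28 and CRK2 held without each library in turn.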

How the results depend on the processing

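CRK28 and CRK29 stayed between 2.73 and 2.90 and between 2.60 and 2.68 on the log2 scale over 19 alternatives each, CRK11 between -1.41 and -1.21, and CRK3 between -0.97 and -0.93, all with the call kept. The count of CRKs called at least 2-fold changed, 3 of 20, became 9 with DESeq2 and with no filter on low counts. The fit with no filter could call 39 CRKs, while DESeq2 gave an adjusted p to only 11 of the 21 CRKs below the filter. This count ran from 3 to 5 when a library was left out. It was 5 without any one of the MBZ replicates 1, 2, 3 and 4, where 22 members passed the filter in place of 20. The added calls were all lower in MBZ, and CRK11, CRK28 and CRK29 were among the calls in each alternative. When a library was left out, the added genes, CRK4 and CRK9, passed the filter only through DMSO libraries, which fixed their direction in advance. The median over the tested CRKs, -0.33, ran from -0.60 to -0.14, and that of CRK5 to CRK24, -0.44, from -1.55 to -0.17, over 19 alternatives. With no filter, 20 of 39 CRKs were called, 4 higher and 16 lower, in place of 14 of 20, 4 higher and 10 lower. In that fit 54.5% of 25990 genes were called in either direction. With limma on log2(RPKM + 1), 841 genes were called at least 2-fold changed in place of 1625, and 834 where genes also had to average 1 RPKM or more. In the added test against a 1.5-fold change, 4 of 20 CRKs passed, 2 higher (CRK28 and CRK29) and 2 lower (CRK11 and CRK3). Of all 20867 tested genes, 2564 (12.3%) passed it. CRK32, which did not pass in any fit, had a log2 fold change between -0.48 and 0.12 when a library was left out, above 0 without DMSO replicate 4 (0.12) and without MBZ replicate 3 (0.01). CRK10 also lost its call with DESeq2 (adjusted p = 0.0600), and CRK16 gained one without MBZ replicate 2 (adjusted p = 0.0465 in edgeR); the cause was not tested. With a replicate block, 14 CRKs (4 higher, 10 lower) and 13786 genes passed, in place of 14 and 13877; correlations of the deviations of equally numbered libraries were between -0.0433 and 0.00579. Depth limits the 21 CRKs below the filter, of which 11 had at most 10 counts in all 8 libraries together.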
